A study of Mus musculus with 12 samples.

Results

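Described here are 37 genes of the unfolded protein response and of protein folding in the endoplasmic reticulum (ER), read on 12 Affymetrix arrays of MIN6 cells, an insulin-making mouse insulinoma line that stands in for beta cells of the pancreas. Members were taken by gene symbol from the platform annotation, from probe sets that carry a single symbol, with the probe set of highest mean signal standing for a gene. All 37 of 37 were measured, of 19938 genes tested. They fall into 11 chaperones and their cofactors, 5 disulfide isomerases and oxidases, 7 genes of ER-associated degradation (ERAD), 5 sensors and their processing protease, 5 genes of the CHOP and ATF4 branch, 3 translocon genes and Wfs1. By mean signal, with all genes in 4 equal parts, 34 of them lay in the brightest part (4985 genes), 2 in the next, 1 below that and 0 in the dimmest.

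The cells had been given Hes3 siRNA or scrambled siRNA, so that every array came from transfected cells. Hes3 encodes a repressor of transcription with a basic helix-loop-helix domain. Classic Conditions (CC) were serum medium at 20% oxygen, and Defined Conditions (DC) were medium without serum at 5% oxygen. CC had 2 arrays for each siRNA and DC had 4. Serum and oxygen changed together, so their parts in a difference between CC and DC cannot be told apart. Per the labels all samples came from a single experiment of this line, assayed 12 to 24 hours after transfection, and the p-values measure only how these samples vary, which may be technical.

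Secreted proteins such as insulin fold in the ER with the help of chaperones and of enzymes that form disulfide bonds, and misfolded chains are sent back to the cytosol for degradation. When folding falls behind, the membrane sensors IRE1 (Ern1), PERK (Eif2ak3) and ATF6 signal to the nucleus: IRE1 splices the mRNA of the factor XBP1, ATF6 is cut by proteases and becomes a factor itself, and PERK slows translation while the factor ATF4 and its target CHOP (Ddit3) are made. XBP1 and ATF6 act on chaperone and ERAD genes through the ER stress response element (ERSE), and beta cells are known for heavy use of this system. The values are signals of probe sets, and whether they separate spliced from unspliced Xbp1 was not analysed here.

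The ERSE is spelled CCAAT, 9 bases of any kind, then CCACG, and it was searched on both strands in the 250 bases before each RefSeq gene start (build GRCm38.p6). Of the 37 genes 32 had an entry. An exact match stood in 10 of these 32 (31.2%), against 37 of all 32851 promoters (0.113%). The windows are shown because this element ties chaperone and ERAD genes to the sensors. Members were chosen as genes of this response, so their higher share is not an independent result. Each reads 5′ to 3′ on the strand of its gene, with the fixed letters in capitals; a match on the other strand reads CGTGG, 9 bases, ATTGG.
Hspa5 (chr2:34772019-34772049, + strand): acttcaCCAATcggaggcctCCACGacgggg
Hsp90b1, distal (chr10:86705632-86705662, - strand): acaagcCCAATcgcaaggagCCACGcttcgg
Hsp90b1, proximal (chr10:86705527-86705557, - strand): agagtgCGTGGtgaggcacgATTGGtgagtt
Dnajc3 (chr14:118937821-118937851, + strand): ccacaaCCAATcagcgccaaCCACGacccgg
Creld2 (chr15:88819514-88819544, + strand): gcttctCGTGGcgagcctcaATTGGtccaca
Calr (chr8:84847069-84847099, - strand): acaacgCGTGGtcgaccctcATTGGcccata
Canx (chr11:50325794-50325824, - strand): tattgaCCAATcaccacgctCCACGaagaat
Pdia6 (chr12:17266485-17266515, + strand): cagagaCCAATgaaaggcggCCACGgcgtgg
Ero1b (chr13:12565676-12565706, + strand): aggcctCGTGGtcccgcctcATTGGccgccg
Syvn1 (chr19:6046526-6046556, + strand): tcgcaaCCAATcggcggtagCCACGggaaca
Derl3 (chr10:75893236-75893266, + strand): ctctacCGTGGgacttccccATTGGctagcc

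Beyond these, the shorter element ERSE-II (ATTGG, 1 base, CCACG) stood in 1 member, Herpud1, and in 10 of all promoters (0.0304%). The core TGACGTG of the XBP1-type element stood in Hspa5 and in 1.65% of all promoters. The C/EBP-ATF element TGATGNAA, a site type of ATF4 and CHOP, stood in Herpud1, Atf3 and Nupr1 (9.38% of members with a promoter, 3.45% of all). In the C/EBP-ATF windows below, the match lies on the other strand. These windows show which members hold these other elements. They are matches of letters only, and binding was not measured.
Herpud1, ERSE-II (chr8:94386371-94386393, + strand): gcgctgATTGGgCCACGttggac
Hspa5, XBP1-type core (chr2:34771922-34771950, + strand): gggcgtagcaaTGACGTGagttgcggagg
Herpud1, C/EBP-ATF (chr8:94386306-94386335, + strand): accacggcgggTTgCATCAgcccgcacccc
Atf3, C/EBP-ATF (chr1:191183425-191183454, - strand): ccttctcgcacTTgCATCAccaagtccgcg
Nupr1, C/EBP-ATF (chr7:126625562-126625591, - strand): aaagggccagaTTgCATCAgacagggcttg
The parts of the ERSE are common alone: CCAAT stood in 75% of members with a promoter and 33.8% of all promoters, and CCACG in 68.8% and 28.3%. With at most 1 changed letter, the ERSE stood in 15 members (46.9%) and 1.32% of all promoters. No entry was matched for Hyou1, Manf, Derl1, Atf6 and Sec61a1.

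**Figure D1:**
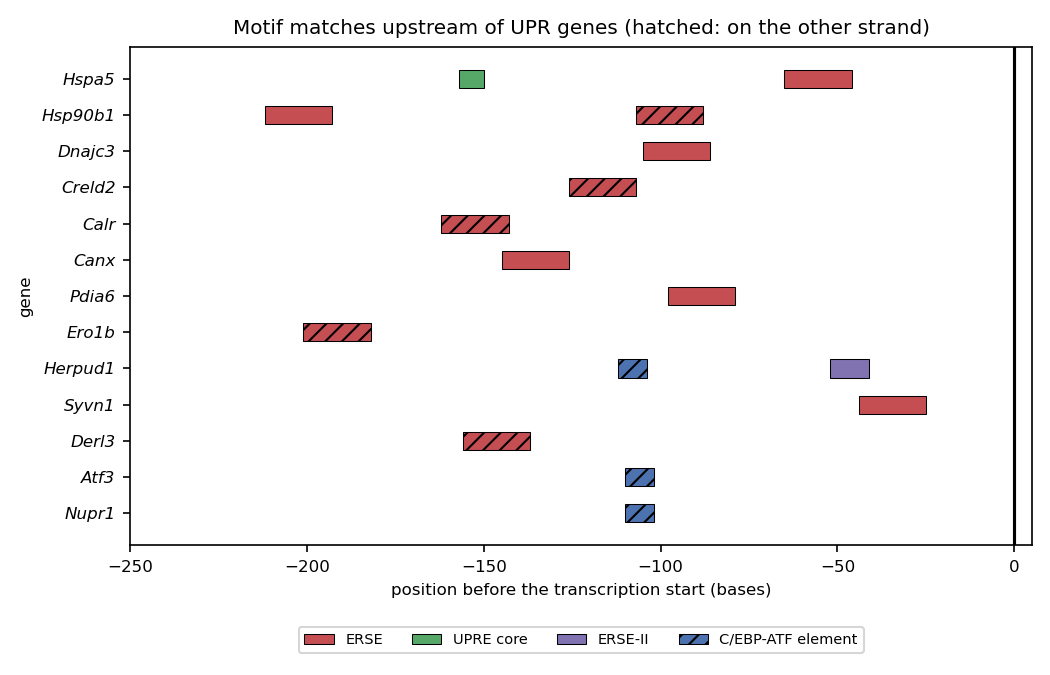
Positions of the motif matches in the 250 bases before the transcription start (x axis, bases) of the 13 genes with any of the 4 motifs (y axis); colour gives the motif and hatching a match on the other strand. The ERSE matches lie at different distances, from Syvn1 nearest the start to the distal match of Hsp90b1 farthest from it. Hspa5 and Herpud1 each hold 2 kinds of motif.

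Hes3 mRNA was no lower under its siRNA label: its mean log2 signal was 7.22 against 7.02 in CC and 7.34 against 7.19 in DC, with log2 fold changes of 0.20 and 0.15 (limma adjusted p = 1 and 0.114). This is a dim level: Cpa1 and Cdh5, with like mean signals of 7.19 and 7.27, lay at the 29.0th and 30.9th percentile of genes. Whether this probe set can register a knockdown was not tested. The groups are therefore named by their labels. Medians of all probe sets ran from 7.78 to 7.96 over the 12 arrays. On the first principal component the DC arrays labelled Hes3 siRNA lay at 12.8 to 34.8, with arrays 1 and 5 farthest out, while all others lay between -32.7 and 1.61. At the other end CC scrambled array 2 was farthest out at -32.7, and the next, CC Hes3 siRNA array 2, lay at -19.3. Of the beta cell markers Ins2, Iapp, Chga, Pdx1 and Mafa all lay at or above the 93.8th percentile of genes, while Slc2a2 (39.4th) and Ucn3 (32.4th) were dim; of other islet types, Gcg (99.2nd) and Sst (98.4th) were bright. The number of arrays limits the precision. Below, the signals of a group stand in the order of its replicate numbers, which are 1, 2, 5 and 7 for DC Hes3 siRNA, and every level is a log2 signal of a single probe set.

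The comparison of DC with CC in scrambled siRNA cells asks what the change of medium and oxygen did without Hes3 siRNA. Of the 37 members, 20 fell (54.1%) and 0 rose, where 5.45% of all genes fell, 3.09% rose and 8.54% changed in either direction (limma, adjusted p under 0.05). The median log2 fold change was -0.34, against 0.02 for all genes and -0.04 for the 4985 brightest genes, of which 11.9% fell. The fold change was negative in 34 of 37, and the DC arrays lay wholly below the CC arrays for 28 members and wholly above for 1, where 14.1% and 13.8% of all genes do so. Among those that fell were chaperone cofactors such as Dnajb9 and Dnajc3, 3 disulfide isomerases, and Derl3, Edem1, Herpud1 and Derl1 of ERAD. Fewer cells of a type and less RNA per cell cannot be told apart in such bulk samples.

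By branch, the genes that fell were 8 of 11 chaperones (median log2 fold change -0.38), 3 of 5 disulfide isomerases and oxidases (-0.36), 4 of 7 ERAD genes (-0.28), 2 of 5 sensors (-0.26), 2 of 3 translocon genes (-0.31), and 1 of 5 genes of the CHOP and ATF4 branch (-0.15); differences between branches were not tested. Of 5 alpha, delta and PP cell markers 1 fell, Gcg, the glucagon gene of alpha cells, by 0.93 on the log2 scale. Of 8 macrophage and endothelium markers 1 fell, the macrophage marker Cd68, by 0.44. The median log2 fold change was -0.06 for the first list (1 of 5 positive) and 0.05 for the second (5 of 8 positive). None of 8 fibroblast, 4 acinar and 4 duct markers passed the test. The summed level of the 5 measured alpha, delta and PP cell markers was 13.2 to 13.4 in CC scrambled and 12.6 to 12.8 in DC scrambled arrays, on a log2 scale. The part of these markers in the result was not tested.

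**Figure D2:**
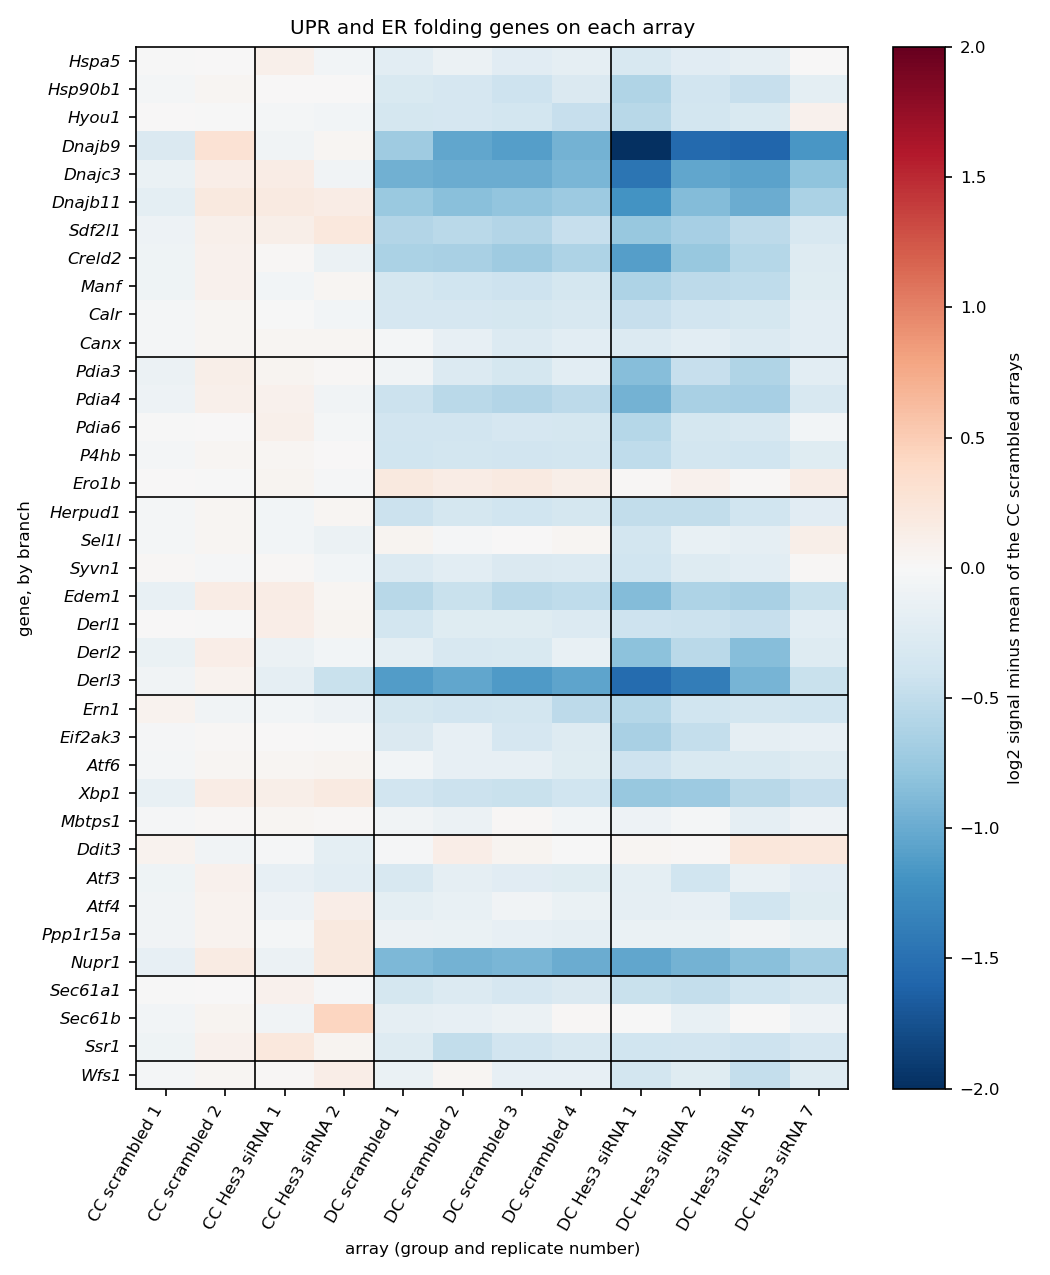
Log2 signal of each of the 37 genes (rows, by branch) on each of the 12 arrays (columns), minus the mean of the 2 CC scrambled arrays; blue is lower and red higher. Most chaperone, isomerase and ERAD rows are blue in all DC columns, the row of Ero1b is not, and among the DC Hes3 siRNA columns array 1 is the deepest and array 7 the palest.

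Among the chaperones, the J-domain cofactors of BiP stood out by size. Dnajb9 (ERdj4) read 11.17 and 11.74 in CC scrambled, 11.39 and 11.49 in CC Hes3 siRNA, 10.74, 10.42, 10.35 and 10.51 in DC scrambled and 9.32, 9.90, 9.88 and 10.30 in DC Hes3 siRNA arrays. All DC arrays lay below all CC arrays, and the CC scrambled arrays differed from each other by 0.57. Its log2 fold change in scrambled cells came to -0.95 ± 0.198 (SE; limma adjusted p = 0.00574), or 0.517 times the CC level. Dnajc3 (p58IPK) read 11.03 and 11.31 in CC scrambled, 11.32 and 11.11 in CC Hes3 siRNA, 10.21, 10.17, 10.18 and 10.26 in DC scrambled and 9.71, 10.12, 10.09 and 10.36 in DC Hes3 siRNA arrays; -0.96 ± 0.131 (SE; limma adjusted p = 0.000216) was its log2 fold change. Its second probe set holds identical values and adds nothing. For Dnajb11 (ERdj3) the signals were 10.34 and 10.73 in CC scrambled, 10.72 and 10.68 in CC Hes3 siRNA, 9.80, 9.70, 9.75 and 9.81 in DC scrambled and 9.34, 9.67, 9.54 and 9.90 in DC Hes3 siRNA arrays. Every DC array was again below every CC array, with a log2 fold change of -0.77 ± 0.125 (SE; limma adjusted p = 0.00092).

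Sdf2l1, a partner of the J-domain proteins, and Creld2 and Manf, small secreted or ER-held proteins made under ER stress, fell as well. Sdf2l1 gave 12.29 and 12.51 in CC scrambled, 12.51 and 12.61 in CC Hes3 siRNA, 11.81, 11.85, 11.81 and 11.94 in DC scrambled and 11.63, 11.73, 11.88 and 12.08 in DC Hes3 siRNA arrays, a log2 fold change of -0.54 ± 0.104 (SE; limma adjusted p = 0.00334). Creld2 gave 11.90 and 12.07 in CC scrambled, 12.01 and 11.87 in CC Hes3 siRNA, 11.35, 11.34, 11.28 and 11.37 in DC scrambled and 10.88, 11.23, 11.41 and 11.73 in DC Hes3 siRNA arrays, a log2 fold change of -0.65 ± 0.151 (SE; limma adjusted p = 0.0122). In both genes the groups of the 2 media were apart on every array, and DC Hes3 siRNA array 7 came closest to CC. Manf gave 11.09 and 11.26 in CC scrambled, 11.12 and 11.22 in CC Hes3 siRNA, 10.83, 10.77, 10.75 and 10.82 in DC scrambled and 10.56, 10.66, 10.66 and 10.93 in DC Hes3 siRNA arrays, with a log2 fold change of -0.38 ± 0.091 (SE; limma adjusted p = 0.014).

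The large chaperones changed less. Hsp90b1 (GRP94) had signals of 13.07 and 13.16 in CC scrambled, 13.12 and 13.12 in CC Hes3 siRNA, 12.81, 12.79, 12.70 and 12.83 in DC scrambled and 12.51, 12.73, 12.66 and 12.91 in DC Hes3 siRNA arrays, with a log2 fold change of -0.34 ± 0.0911 (SE; limma adjusted p = 0.0298). Calr, the lectin chaperone calreticulin of the ER lumen, had signals of 13.01 and 13.10 in CC scrambled, 13.05 and 13.00 in CC Hes3 siRNA, 12.72, 12.72, 12.70 and 12.73 in DC scrambled and 12.59, 12.67, 12.70 and 12.84 in DC Hes3 siRNA arrays, with a log2 fold change of -0.34 ± 0.0744 (SE; limma adjusted p = 0.00854). Both were lower on every DC array than on any CC array. Its membrane-bound relative calnexin, Canx, had 13.04 and 13.11 in CC scrambled, 13.12 and 13.11 in CC Hes3 siRNA, 13.04, 12.91, 12.81 and 12.87 in DC scrambled and 12.81, 12.86, 12.80 and 12.86 in DC Hes3 siRNA arrays. Its DC scrambled arrays reached up to the CC scrambled range, and -0.17 ± 0.0732 (SE; limma adjusted p = 0.205) did not pass.

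Hspa5 encodes BiP, the Hsp70 of the ER and a common readout of ER stress. As reported, it did not pass the test in either medium comparison, though with Hes3 siRNA it fell in 2 of 21 alternatives. It read 13.26 and 13.27 in CC scrambled, 13.36 and 13.21 in CC Hes3 siRNA, 13.06, 13.15, 13.04 and 13.10 in DC scrambled and 12.94, 13.04, 13.09 and 13.27 in DC Hes3 siRNA arrays. All 4 DC scrambled arrays lay below both CC scrambled arrays, but the log2 fold change reached no more than -0.18 ± 0.0855 (SE; limma adjusted p = 0.252), with a 95% interval from -0.36 to 0.00. Hyou1 (GRP170), the nucleotide exchange factor of BiP, read 12.35 and 12.34 in CC scrambled, 12.31 and 12.29 in CC Hes3 siRNA, 11.99, 12.02, 11.98 and 11.88 in DC scrambled and 11.80, 11.98, 12.04 and 12.44 in DC Hes3 siRNA arrays. Its scrambled arrays did not overlap between media either, and its log2 fold change of -0.38 ± 0.121 (SE; limma adjusted p = 0.0666) missed the threshold, though it passed in 5 of 21 alternatives, among them with only the arrays compared (limma adjusted p = 0.00578) and without DC Hes3 siRNA array 7 (0.00438).

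Of the enzymes of disulfide bond formation, 3 protein disulfide isomerases fell. P4hb, the founding member of the family, showed 12.66 and 12.74 in CC scrambled, 12.73 and 12.70 in CC Hes3 siRNA, 12.30, 12.34, 12.32 and 12.34 in DC scrambled and 12.20, 12.33, 12.31 and 12.45 in DC Hes3 siRNA arrays (log2 fold change -0.37 ± 0.0736, limma adjusted p = 0.00399). Pdia4 (ERp72) showed 12.44 and 12.65 in CC scrambled, 12.64 and 12.47 in CC Hes3 siRNA, 12.12, 12.01, 11.96 and 12.02 in DC scrambled and 11.60, 11.90, 11.88 and 12.23 in DC Hes3 siRNA arrays (log2 fold change -0.52 ± 0.125, limma adjusted p = 0.0149). Pdia6 (P5) showed 12.20 and 12.21 in CC scrambled, 12.30 and 12.16 in CC Hes3 siRNA, 11.82, 11.82, 11.87 and 11.85 in DC scrambled and 11.63, 11.85, 11.88 and 12.15 in DC Hes3 siRNA arrays (log2 fold change -0.36 ± 0.104, limma adjusted p = 0.0402). In these genes the DC scrambled arrays lay close together and below both CC groups. A second probe set of Pdia4, with a mean log2 signal of 8.35, did not follow the first (log2 fold change 0.03, r = 0.0719 with it over the 12 arrays), and with the mean of both the call of Pdia4 was lost (-0.24).

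Pdia3 (ERp57), which works on glycoproteins with calnexin and calreticulin, showed 12.42 and 12.65 in CC scrambled, 12.59 and 12.56 in CC Hes3 siRNA, 12.46, 12.26, 12.18 and 12.32 in DC scrambled and 11.68, 12.08, 11.94 and 12.32 in DC Hes3 siRNA arrays. DC scrambled array 1 lay above CC scrambled array 1, for a log2 fold change of -0.23 ± 0.131 (SE; limma adjusted p = 0.375). Ero1b, the oxidase of pancreatic cells that recharges the isomerases, ran the other way. Its signals were 12.47 and 12.46 in CC scrambled, 12.51 and 12.44 in CC Hes3 siRNA, 12.66, 12.61, 12.64 and 12.58 in DC scrambled and 12.48, 12.54, 12.48 and 12.61 in DC Hes3 siRNA arrays. It was the 1 member whose DC scrambled arrays all lay above the CC scrambled arrays, though 0.16 ± 0.0669 (SE; limma adjusted p = 0.19) did not pass.

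In ERAD, Derl3, a derlin of the retrotranslocation channel, had the lowest fold change of all members. Derl3 signals were 10.61 and 10.75 in CC scrambled, 10.50 and 10.24 in CC Hes3 siRNA, 9.57, 9.64, 9.55 and 9.62 in DC scrambled and 9.13, 9.30, 9.75 and 10.23 in DC Hes3 siRNA arrays. The 4 DC scrambled arrays lay close together, whereas the 4 DC Hes3 siRNA arrays were strung out over 1.09. Its log2 fold change in scrambled cells came to -1.08 ± 0.202 (SE; limma adjusted p = 0.0026), or 0.472 times the CC level. Its relatives moved less. Derl1 had 10.73 and 10.71 in CC scrambled, 10.85 and 10.77 in CC Hes3 siRNA, 10.34, 10.48, 10.47 and 10.45 in DC scrambled and 10.31, 10.29, 10.25 and 10.50 in DC Hes3 siRNA arrays (log2 fold change -0.28 ± 0.0786, limma adjusted p = 0.0344), with no overlap between media. Derl2 had 10.11 and 10.38 in CC scrambled, 10.13 and 10.19 in CC Hes3 siRNA, 10.05, 9.93, 9.94 and 10.09 in DC scrambled and 9.43, 9.70, 9.40 and 9.99 in DC Hes3 siRNA arrays (log2 fold change -0.24 ± 0.132, limma adjusted p = 0.35), and did not pass in scrambled cells.

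Edem1, a lectin that hands misfolded glycoproteins to degradation, and Herpud1, a scaffold of the ubiquitin ligase complex, fell. Edem1 signals were 11.57 and 11.86 in CC scrambled, 11.85 and 11.75 in CC Hes3 siRNA, 11.15, 11.27, 11.17 and 11.20 in DC scrambled and 10.85, 11.10, 11.06 and 11.27 in DC Hes3 siRNA arrays (log2 fold change -0.51 ± 0.103, limma adjusted p = 0.00436). Herpud1 signals were 11.36 and 11.44 in CC scrambled, 11.34 and 11.44 in CC Hes3 siRNA, 10.96, 11.04, 11.01 and 11.05 in DC scrambled and 10.90, 10.90, 11.01 and 11.17 in DC Hes3 siRNA arrays (log2 fold change -0.38 ± 0.0808, limma adjusted p = 0.00639). The ligase itself did not pass as reported, though Syvn1 did in 4 of 21 alternatives: Syvn1 (HRD1) had a log2 fold change of -0.26 ± 0.0916 (SE; limma adjusted p = 0.0999) and its partner Sel1l one of 0.02 ± 0.0988 (SE; limma adjusted p = 0.956). Sel1l had mean signals of 10.94 in CC scrambled and 10.96 in DC scrambled arrays.

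On the side of the sensors, Ern1 and Xbp1, receptor and factor of the same arm, fell. Ern1 showed 12.01 and 11.86 in CC scrambled, 11.88 and 11.84 in CC Hes3 siRNA, 11.58, 11.56, 11.56 and 11.41 in DC scrambled and 11.36, 11.53, 11.57 and 11.54 in DC Hes3 siRNA arrays, and a log2 fold change of -0.41 ± 0.0805 (SE; limma adjusted p = 0.00404). Xbp1 showed 11.44 and 11.73 in CC scrambled, 11.70 and 11.77 in CC Hes3 siRNA, 11.20, 11.16, 11.13 and 11.18 in DC scrambled and 10.82, 10.86, 11.03 and 11.13 in DC Hes3 siRNA arrays, and a log2 fold change of -0.42 ± 0.0942 (SE; limma adjusted p = 0.0101). The media did not overlap for either gene. For Atf6 the signals were 10.41 and 10.50 in CC scrambled, 10.50 and 10.50 in CC Hes3 siRNA, 10.39, 10.30, 10.28 and 10.21 in DC scrambled and 10.05, 10.15, 10.15 and 10.20 in DC Hes3 siRNA arrays, and -0.16 ± 0.0728 (SE; limma adjusted p = 0.237) did not pass. Eif2ak3 (PERK) had 9.91 and 9.97 in CC scrambled, 9.96 and 9.93 in CC Hes3 siRNA, 9.66, 9.78, 9.61 and 9.69 in DC scrambled and 9.30, 9.46, 9.77 and 9.78 in DC Hes3 siRNA arrays, and -0.26 ± 0.112 (SE; limma adjusted p = 0.208) did not pass. Mbtps1, the site-1 protease that cuts ATF6, lay nearest to 0 of this branch at -0.06 ± 0.0684 (SE; limma adjusted p = 0.738).

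In the CHOP and ATF4 branch Nupr1, a small stress-induced chromatin protein, was the 1 gene of 5 to fall. It read 10.76 and 11.08 in CC scrambled, 10.80 and 11.12 in CC Hes3 siRNA, 10.02, 9.98, 10.003 and 9.94 in DC scrambled and 9.88, 9.98, 10.09 and 10.25 in DC Hes3 siRNA arrays, with no overlap between media and a log2 fold change of -0.94 ± 0.111 (SE; limma adjusted p = 7.2e-05). Atf4 read 9.66 and 9.82 in CC scrambled, 9.64 and 9.88 in CC Hes3 siRNA, 9.55, 9.59, 9.67 and 9.61 in DC scrambled and 9.57, 9.58, 9.34 and 9.49 in DC Hes3 siRNA arrays, and -0.14 ± 0.0877 (SE; limma adjusted p = 0.454) did not pass. Ddit3, which encodes CHOP, read 9.04 and 8.91 in CC scrambled, 8.95 and 8.78 in CC Hes3 siRNA, 8.96, 9.10, 9.02 and 8.96 in DC scrambled and 9.02, 8.99, 9.20 and 9.18 in DC Hes3 siRNA arrays. The scrambled arrays of both media overlapped, with a log2 fold change of 0.04 ± 0.0838 (SE; limma adjusted p = 0.882) and a 95% interval from -0.14 to 0.21. Atf3 at -0.24 ± 0.0808 (SE; limma adjusted p = 0.0846) and Ppp1r15a (GADD34), the phosphatase subunit that restarts translation, at -0.15 ± 0.0746 (SE; limma adjusted p = 0.289) had DC scrambled arrays below both CC scrambled arrays without passing. Both lay near the middle of all genes in mean signal, at the 49.9th and 50.1st percentile.

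Sec61a1, the channel subunit through which new chains enter the ER, and Ssr1, a subunit of the associated TRAP complex, fell. Sec61a1 had 13.12 and 13.12 in CC scrambled, 13.20 and 13.10 in CC Hes3 siRNA, 12.77, 12.84, 12.79 and 12.83 in DC scrambled and 12.67, 12.64, 12.72 and 12.79 in DC Hes3 siRNA arrays (log2 fold change -0.31 ± 0.0685, limma adjusted p = 0.00864), and Ssr1 had 12.52 and 12.69 in CC scrambled, 12.82 and 12.66 in CC Hes3 siRNA, 12.35, 12.12, 12.22 and 12.28 in DC scrambled and 12.21, 12.22, 12.20 and 12.28 in DC Hes3 siRNA arrays (log2 fold change -0.36 ± 0.0805, limma adjusted p = 0.00904). In both genes all DC arrays lay below all CC arrays. Sec61b did not pass (log2 fold change -0.11 ± 0.109, limma adjusted p = 0.683), and its 2 further probe sets gave log2 fold changes of -0.17 and -0.20. Wfs1, an ER membrane protein of calcium handling whose loss causes diabetes in Wolfram syndrome, had 10.96 and 11.04 in CC scrambled, 11.03 and 11.13 in CC Hes3 siRNA, 10.87, 11.04, 10.84 and 10.83 in DC scrambled and 10.63, 10.76, 10.52 and 10.75 in DC Hes3 siRNA arrays. Its scrambled arrays overlapped between media, with a log2 fold change of -0.10 ± 0.0857 (SE; limma adjusted p = 0.595).

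**Figure D3:**
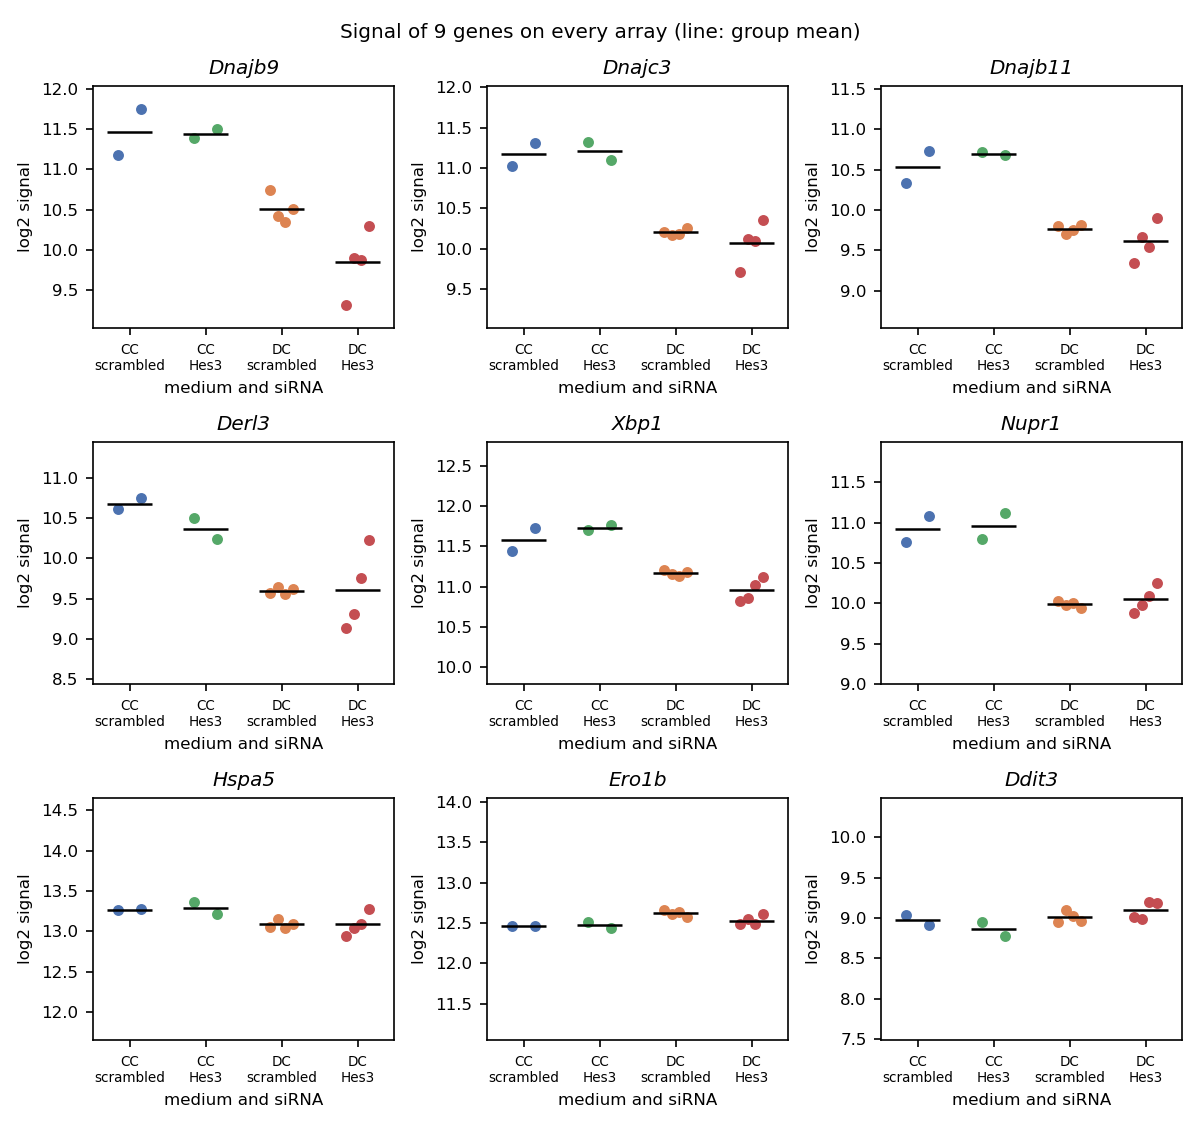
Log2 signal (y axis, each panel spanning 3 log2 units) of 9 genes on every array, by medium and siRNA (x axis); a point is 1 array and the line the group mean. Dnajb9, Dnajc3, Dnajb11, Derl3, Xbp1 and Nupr1 have lower DC means, Hspa5, Ero1b and Ddit3 lie nearly level, and the 4 DC Hes3 siRNA points spread more widely than the 4 DC scrambled points in Derl3.

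The same comparison of media in cells labelled Hes3 siRNA uses other arrays. Here 27 of 37 members fell (73%) and 1 rose, where 18.8% of all genes fell, 21.2% rose and 40.1% changed in either direction. The median log2 fold change was -0.40, against 0.09 for all genes and -0.19 for the 4985 brightest genes, of which 44.5% fell. The background of this comparison is high, so that the share of members is to be read against 44.5% rather than against a small value. All 20 genes that fell in scrambled cells were among the 27 (100% of the first list, 74.1% of the second). The DC arrays lay wholly below the CC arrays for 29 members and wholly above for 1, where 23.4% and 38.4% of all genes do so (61.8% in either direction). Fibroblast (3 of 8), acinar (3 of 4), macrophage and endothelium (3 of 8), duct (1 of 4) and alpha, delta and PP cell (3 of 5) markers rose in this comparison while Gcg and Cd68 fell, and their part in it was not tested.

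By branch 9 of 11 chaperones fell, 4 of 5 disulfide isomerases and oxidases, 5 of 7 ERAD genes, 4 of 5 sensors, 2 of 5 genes of the CHOP and ATF4 branch, 2 of 3 translocon genes, and Wfs1. Dnajb9 had the lowest value at -1.59 ± 0.198 (SE; limma adjusted p = 3.87e-05), or 0.332 times the CC level. Dnajc3 followed at -1.14 ± 0.131 (SE; limma adjusted p = 2e-05) and Dnajb11 at -1.09 ± 0.125 (SE; limma adjusted p = 2.05e-05). Also lower were Nupr1 (-0.91), Xbp1 (-0.78), Derl3 (-0.76), Edem1 (-0.73) and Sdf2l1 (-0.73). Passing only here were Canx (-0.28), Pdia3 (-0.57), Derl2 (-0.53), Eif2ak3 (-0.37), Atf6 (-0.36), Atf4 (-0.27) and Wfs1 (-0.41), each with limma adjusted p of 0.0278 or less. Whether those 7 differ between the siRNA labels is a question for the difference test given further on.

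Ddit3 was the member that rose, by 0.23 ± 0.0838 (SE; limma adjusted p = 0.0399), with its 4 DC Hes3 siRNA arrays above both CC Hes3 siRNA arrays. The call was lost in 10 of 21 alternatives, among them without either CC Hes3 siRNA array and without DC Hes3 siRNA array 5 or 7, where the adjusted p reached 0.337 at most. Hspa5 (log2 fold change -0.20 ± 0.0855, limma adjusted p = 0.0696), Hyou1 (log2 fold change -0.24 ± 0.121, limma adjusted p = 0.117), Ero1b (log2 fold change 0.05 ± 0.0669, limma adjusted p = 0.522), Sel1l, Syvn1, Mbtps1, Atf3, Ppp1r15a and Sec61b passed in neither comparison of media. Of these, Ppp1r15a fell with Hes3 siRNA in 7 of 21 alternatives, among them the 3 other scalings (limma adjusted p from 0.00998 to 0.0149). Hyou1 fell in 3, Hspa5, Syvn1 and Sec61b in 2 each and Mbtps1 in 1. Ero1b rose in 2, after quantile normalization (0.22) and after cyclic loess (0.27).

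**Figure D4:**
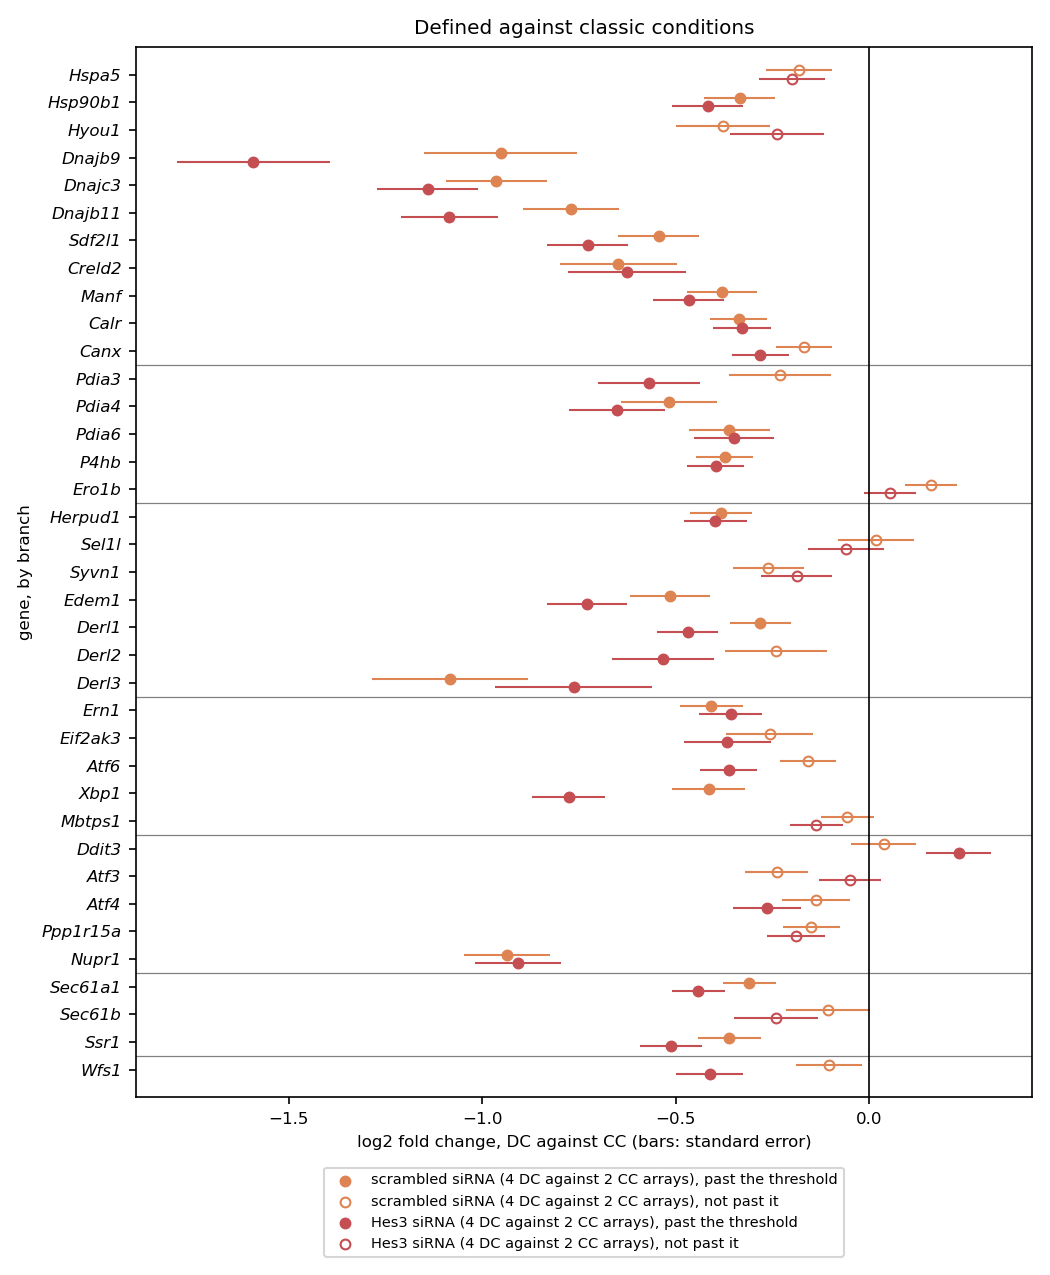
Log2 fold change of DC against CC (x axis; bars are the standard error of the fit) for each of the 37 genes (y axis, by branch), in scrambled and in Hes3 siRNA cells. Nearly all points lie left of 0, with Dnajb9, Dnajc3, Dnajb11, Derl3 and Nupr1 farthest, and Ero1b and Ddit3 lie right of 0 in both.

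The count in scrambled cells changed with 1 CC array. On CC scrambled array 2 the median member stood 0.28 above its mean over all 12 arrays, and on array 1 it stood 0.19 above. Without array 2, 5 members passed (1.95% of all genes): Dnajc3, Dnajb11, Derl3, Ern1 and Nupr1, the lone CC array being assumed to vary like the other groups. The median log2 fold change was then -0.29. Without CC scrambled array 1, 19 members fell (8.30% of all genes). The calls of Pdia6, Derl1 and Hsp90b1 were lost most often, in 13, 9 and 6 of 21 alternatives. Over all 21 the calls of Derl3, Dnajb11, Dnajc3 and Nupr1 in scrambled cells were kept, and in Hes3 siRNA cells 12 of 28 calls were.

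Further genes of the pathway were read from lists not used to choose the members. Like the members, these lists were chosen with earlier results of these data known, and they were read on the same arrays. In scrambled cells 17 of 29 measured genes of ER folding and redox fell, as did 11 of 17 of translocation and signal peptidase and 9 of 15 of the oligosaccharyl transferase and glycan assembly, where 5.45% of all genes and 11.9% of the 4985 brightest genes fell. Examples were the prolyl isomerase Fkbp11 (log2 fold change -0.84), the glucosidase subunit Prkcsh (-0.60), the TRAP subunit Ssr3 (-0.75), the signal peptidase subunits Sec11a (-0.65) and Spcs1 (-0.61), and the transferase subunits Dad1 (-0.63) and Ostc (-0.53). Of further ERAD genes 4 of 20 fell, with Selenos at -0.61. Of ATF4 and CHOP target genes 7 of 25 fell, with the cystine transporter Slc7a11 at -1.02, Ddit4 at -0.47 and the serine synthesis enzyme Psat1 at -0.54. Of other ER stress transducers and genes of eIF2alpha 1 of 16 (6.25%) fell, near the background, Ppp1r15b at -0.31. None of 10 cytosolic heat shock genes passed; 2 of them had an unadjusted p under 0.05, Hsph1 (-0.25) and Hspb1 (-0.25). None of these lists had a gene that rose.

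Between media with Hes3 siRNA, 24 of 29 folding and redox genes fell, 15 of 17 of translocation, 14 of 15 of the oligosaccharyl transferase and 16 of 20 of ERAD. Of ATF4 and CHOP targets 17 of 25 fell, of other transducers 5 of 16 and of cytosolic heat shock genes 5 of 10. Against these counts stand 18.8% of all genes and 44.5% of the 4985 brightest genes that fell in this comparison, so that the shares of the transducers (31.2%) and heat shock genes (50%) lay near or below that of the brightest genes. Examples were Slc7a11 (-1.33), Tmx1 (-1.18), Psat1 (-1.08), Shmt2 (-1.01) and Ssr3 (-1.01). The cytosolic heat shock genes that fell included Hspe1 (-0.67) and Dnajb1 (-0.60). Among these lists 1 gene of ER folding and redox and 1 ATF4 target rose.

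Set against scrambled siRNA in CC, the Hes3 siRNA label left no member past the test. Of 37 genes 0 passed limma and 0 had an unadjusted p under 0.05. Over all genes, 0% passed and 415 had an unadjusted p under 0.05. The median log2 fold change was 0.02 and the range from -0.31 (Derl3) to 0.17 (Sec61b). Groups were apart for 4 higher members (Sdf2l1, Derl1, Atf6, Mbtps1) and 4 lower ones (Hyou1, Sel1l, Derl3, Atf3), where 13.9% and 13.1% of all genes are. With 2 arrays a group the intervals stay wide: that of Dnajb9 ran from -0.50 to 0.47 and that of Xbp1 from -0.08 to 0.38, whereas that of Hspa5 ran from -0.19 to 0.23.

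In DC, 6 members fell and 0 rose with the Hes3 siRNA label (16.2%), where 18.3% of all genes fell, 28.9% rose and 47.2% changed in either direction. Among the 4985 brightest genes, to which most members belong, 40.9% fell. The share of members is thus near or below the background. The median log2 fold change was -0.07, against 0.06 for all genes and -0.15 for the 4985 brightest genes, and 28 of 37 values were negative. The members' median turned to 0.01 after quantile normalization (all genes 0.07) and to 0.05 after cyclic loess (0.02). Groups were apart for 4 members, all lower, where 17% of all genes are apart in that direction. By part of signal, from dim to bright, the median over all genes was 0.15, 0.21, -0.03 and -0.15.

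The 6 genes were Dnajb9 at -0.66 ± 0.161 (SE; limma adjusted p = 0.00731), Derl2 at -0.38 ± 0.108 (SE; limma adjusted p = 0.0134), Pdia3 at -0.30 ± 0.107 (SE; limma adjusted p = 0.0338), Wfs1 at -0.23 ± 0.0699 (SE; limma adjusted p = 0.0169), Xbp1 at -0.21 ± 0.0769 (SE; limma adjusted p = 0.0353) and Atf6 at -0.16 ± 0.0595 (SE; limma adjusted p = 0.0409). On the arrays given above, all 4 Hes3 siRNA arrays were below all 4 scrambled arrays for Dnajb9, Wfs1, Xbp1 and Atf6. For Pdia3 and Derl2 array 7 reached into the scrambled range. Hspa5 (log2 fold change 0.00 ± 0.0698, limma adjusted p = 0.99; 95% interval from -0.15 to 0.15), Derl3 (log2 fold change 0.01 ± 0.165, limma adjusted p = 0.967) and P4hb (log2 fold change 0.00 ± 0.0601, limma adjusted p = 0.977) had near equal means. In the CHOP and ATF4 branch 0 of 5 passed, with Ddit3 at 0.09 ± 0.0684 (SE; limma adjusted p = 0.282) and Atf4 at -0.11 ± 0.0716 (SE; limma adjusted p = 0.213).

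These calls depend on which arrays and which scaling are used. Without DC Hes3 siRNA arrays 1 and 5, which stand apart, 0 members passed (1.41% of all genes fell), and the members' median was 0.01. Without array 5 alone 2 passed, without array 1 alone 3, without DC scrambled array 1 alone 3, and without array 7 alone 11. After quantile or cyclic loess normalization Dnajb9 was the 1 member that fell, and after quantile normalization Syvn1 rose (0.20). Markers of other cells moved with this comparison: 6 of 8 fibroblast, 4 of 4 acinar, 3 of 4 duct, 4 of 8 macrophage and endothelium and 3 of 5 alpha, delta and PP cell markers rose. Of all genes 28.9% rose, as did 36.9% of the dimmest part by signal and 56.9% of the next. Many of these markers are dim, so their counts are to be read against those shares. Others are brighter: Col1a1 and Col1a2 lay at the 64.7th and 62.6th percentile and rose by 0.37 and 0.33. They belong to the third part by signal, of which 19.6% rose. The summed fibroblast level was 10.9 to 11.2 in the Hes3 siRNA and 10.7 to 10.8 in the scrambled arrays, with Lum, Ptprc and Adgre1 dim at the 5.90th, 10.9th and 12.9th percentile. The part of these markers in the result was not tested.

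The members spread more within the DC Hes3 siRNA group than in DC scrambled. The median range of a member over its 4 arrays was 0.330, against 0.116 over the 4 DC scrambled arrays, and for the 4985 brightest genes 0.244 and 0.149. Array 7 was the highest of the 4 for 28 of 37 members (75.7%; 35.9% of the 4985 brightest genes) and array 1 the lowest for 24 (64.9%; 44.7%). Creld2, from 10.88 on array 1 to 11.73 on array 7, and Hyou1, from 11.80 to 12.44, show the same order as Derl3. Of the further lists, those of folding, ERAD, translocation, oligosaccharyl transferase and cytosolic heat shock had array 1 lowest and array 7 highest as well. The median deviation from the gene's mean over all arrays was -0.31 on array 1 and -0.08 on array 7 for folding and redox genes. It was -0.28 and -0.08 for ERAD, -0.35 and -0.09 for translocation, -0.29 and -0.07 for oligosaccharyl transferase and -0.26 and -0.06 for cytosolic heat shock genes. ATF4 and CHOP targets had array 1 lowest but array 2 highest, and other transducers had array 2 lowest and array 7 highest. Canx and Ssr1 hardly differed among these arrays. No label says what arrays 1 and 7 differ in.

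**Figure D5:**
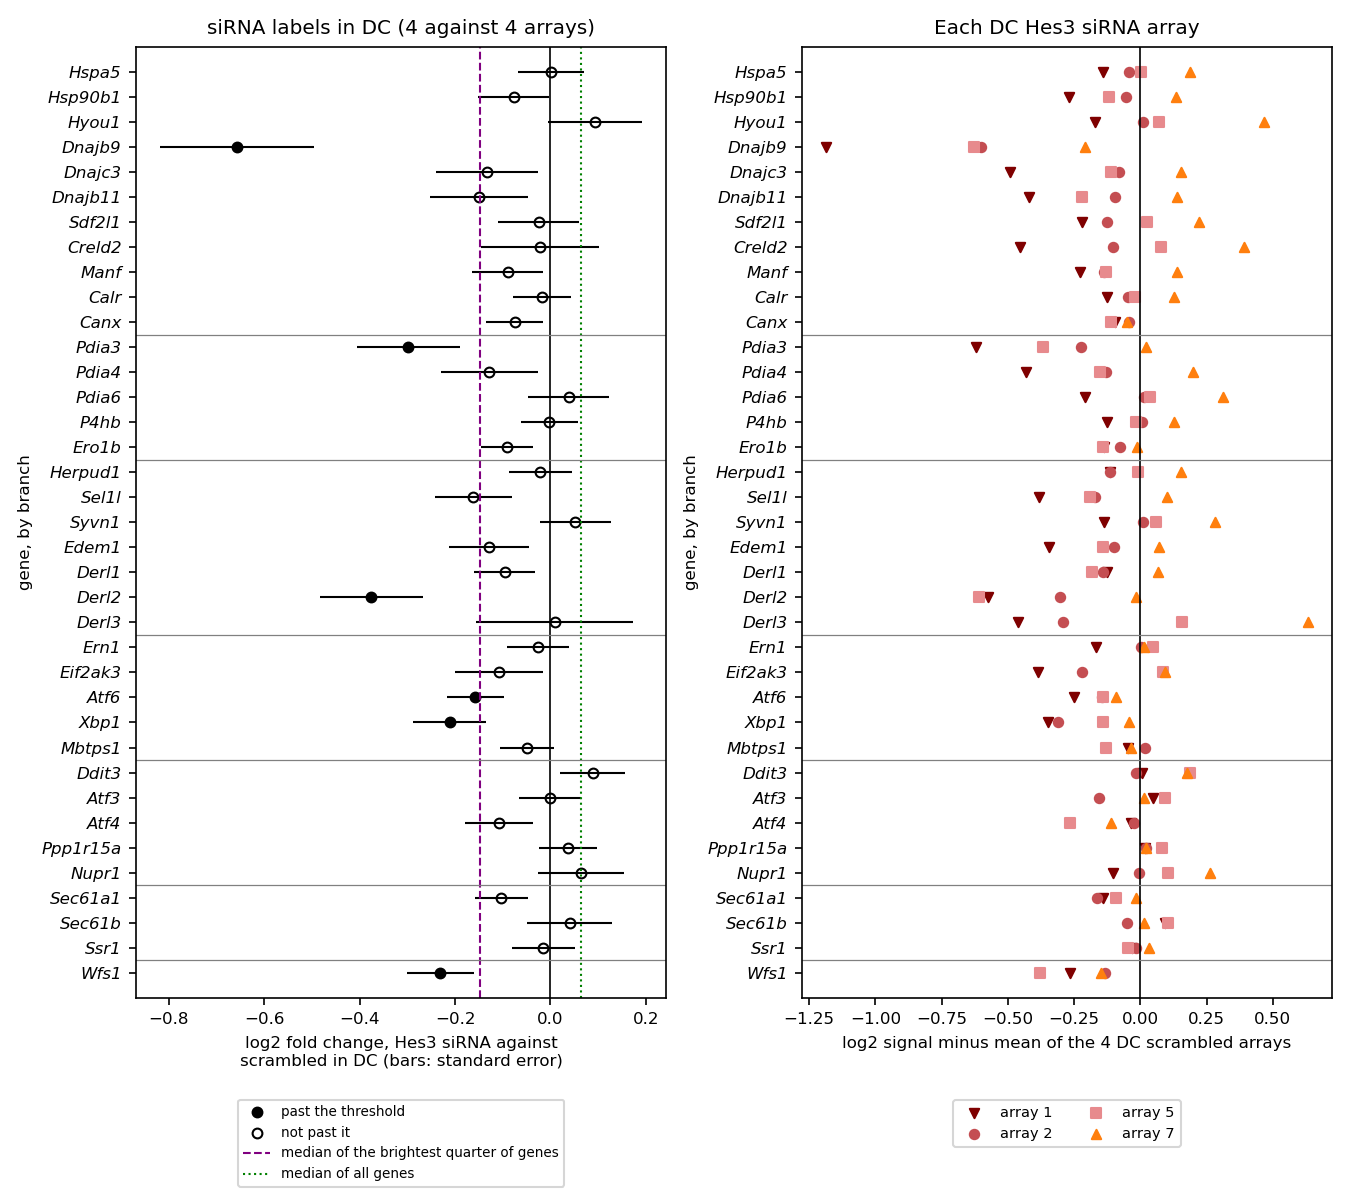
Left, log2 fold change of Hes3 siRNA against scrambled siRNA in DC (x axis; bars are the standard error of the fit) for each gene (y axis, by branch), with the medians of all genes and of the 4985 brightest genes as lines; right, each DC Hes3 siRNA array minus the mean of the 4 DC scrambled arrays (x axis, log2). Dnajb9 lies farthest left, and array 7 is the highest of the 4 arrays in 28 of 37 rows.

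Further lists in DC had 10 lower and 2 higher of 25 ATF4 and CHOP targets, 9 lower and 1 higher of 29 folding and redox genes, 9 lower of 20 ERAD genes, 3 lower of 17 translocation genes and 3 lower of 15 oligosaccharyl transferase genes. Among them were the thioredoxin-like Txndc12 (-0.58) and Tmx1 (-0.54), the ERAD enzymes Edem3 (-0.44) and Ube2j1 (-0.39), and Shmt2 (-0.42). Cytosolic heat shock had 4 lower and 1 higher of 10, and other transducers 3 lower and 1 higher of 16. The shares that fell, from 17.6% to 45%, lay near or below the 40.9% of the 4985 brightest genes, and 18.3% of all genes fell and 28.9% rose.

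Whether the siRNA labels differed more in DC than in CC was tested directly as the difference of both contrasts. No member passed, and 3 had an unadjusted p under 0.05, where 0% of all genes passed and 3471 had such a p. These 3 were Dnajb9 at -0.64 ± 0.28 (SE; limma adjusted p = 0.266), Xbp1 at -0.36 ± 0.133 (SE; limma adjusted p = 0.221) and Wfs1 at -0.31 ± 0.121 (SE; limma adjusted p = 0.237). The same test covers the comparisons of media, since the difference is the same number, so none of the 7 genes that passed only with Hes3 siRNA was shown to respond otherwise to the medium. Without CC scrambled array 2, Xbp1 passed (-0.50, limma adjusted p = 0.0326), where 7.85% of all genes were lower.

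Set beside the sequences above, the calls were as follows. In the comparison of media in scrambled cells 6 of the 10 genes with an exact ERSE fell (median log2 fold change -0.34), and 11 of the 22 with a promoter but no exact ERSE (-0.31). In the comparison of media with Hes3 siRNA 7 of the 10 and 16 of the 22 fell (-0.34 and -0.41). With the Hes3 siRNA label in DC 0 of the 10 and 5 of the 22 fell (-0.02 and -0.08). In these 3 comparisons, in order, 5.45%, 18.8% and 18.3% of all genes fell. Of the 4985 brightest genes 11.9%, 44.5% and 40.9% fell. Both Ero1b, the 1 member whose DC scrambled arrays were all higher, and Hspa5, which did not pass, hold an exact match, as do Dnajc3 and Derl3 among those that fell most. Dnajb9, Dnajb11 and Nupr1 fell without one in this window. Of the 3 members with the C/EBP-ATF element Herpud1 and Nupr1 fell and Atf3 did not pass. These counts are a description with no test.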

How the data were processed

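RNA of 12 arrays was measured, with groups from the sample titles. The deposited table holds log2 values for 35556 probe sets; log2 is read from the values (3.94 to 14.4), and the authors' summarization and normalization are not given in the sources used here. Of these, 21789 probe sets carry 1 gene symbol, which left 19938 genes after the probe set of highest mean was kept. All 12 columns were used.

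Models were fitted by lmFit and eBayes of limma 3.58.1 (R 4.3.3; 1 mean per group, 8 residual and 7.62 prior degrees of freedom), with Benjamini-Hochberg adjustment over all genes, a threshold of 0.05, two-sided p-values and no filter. The fit was tested on simulated data. The 4 parts by signal are equal parts of all genes by mean signal.

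Members, lists and alternatives were chosen with earlier results of these data known. All members are named; of each further list, up to 4 genes past the threshold with the smallest p, or 2 where none passed. Alternatives were other normalizations, a filter on dim genes, eBayes with trend and robust settings, fewer arrays, probe set means, a replicate block and leaving out arrays. Promoters are RefSeq's (GRCm38.p6). Protein sequences were not analysed here.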

Additional observations from a re-analysis of the deposited data

Results flagged for a closer look

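In 2 of 74 groups of 4 arrays tested, 1 array lay far from the other 3 by Dixon's test at the 95% level, where chance gives about 1 in 20. Ern1 read 11.41 in DC scrambled array 4, below 11.56 on the nearest other array. Ppp1r15a read 8.12 in DC Hes3 siRNA array 5, above 8.06 on the nearest other array.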

How the results depend on the processing

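The 27 members lower in DC with Hes3 siRNA stayed within 1.5 times that count under all 21 alternatives (21 to 30 when arrays were left out in turn). The 20 lower in scrambled cells became 9 with replicate number as a block and 5 to 22 when arrays were left out. The 6 lower with Hes3 siRNA in DC became 1 after quantile normalization, 10 with arrays centred on their median, 1 after cyclic loess, 1 with the block, 0 without arrays 1 and 5 together and 2 to 11 when arrays were left out; 1 rose after quantile normalization in place of 0. The 1 higher in DC with Hes3 siRNA became 2 after quantile normalization and after cyclic loess, 0 with centring, with only the arrays compared, with the block and without arrays 1 and 5, and 0 to 1 when arrays were left out. In the difference of contrasts 0 became 0 to 1 when arrays were left out. The cause was not tested. No fold change of a called member changed sign under these alternatives. The labels do not say that equal numbers share a culture, and deviations of same-numbered arrays correlated from -0.441 to 0.536, so the numbers were not taken to pair the samples. The fit on only the arrays compared gives no value for the difference of contrasts. With 2 arrays per CC group, small changes in CC were not detectable.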

Other observations

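Of the 35 genes with an exact ERSE, 25 are not members of the described set, and 10 of those were measured. In DC against CC with scrambled siRNA, 1 of the 10 fell and 0 rose, where 5.45% of all genes fell and 3.09% rose. The median of the 10 was 0.03. The gene that fell was Alg12, an ER mannosyltransferase of glycan assembly (log2 fold change -0.52 ± 0.142 SE, limma adjusted p = 0.0313). Alg12 and Creld2 are divergent neighbours, and the match lies between both gene starts, so the same bases are counted for each. With Hes3 siRNA in DC, 6 of the 10 were higher and 0 lower (median 0.19), where 28.9% of all genes were higher. By part of signal, from dim to bright, that share was 36.9%, 56.9%, 19.6% and 2.39%. The parts in which these 10 genes lie were not looked up, so an excess cannot be read from their count. Among these were Acacb (0.19) and Adcy3 (0.20). These genes were singled out after their values were seen.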
